A study of Mus musculus with 10 samples.

Results

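The genes described here are Apoe, the gene of apolipoprotein E, and 6 genes that lie beside it on mouse chromosome 7, namely Apoc1, Apoc2, Apoc4, Tomm40, Clasrp and Nectin2. They were taken as every probe set that the platform annotation gives exactly 1 symbol for one of these genes, which found 8 of 45101 probe sets on the array. Nectin2 had 2 probe sets and each of the other genes had 1. The genes were chosen by the difference between the groups in Apoe and Clasrp and by nearness to Apoe, so their values in that comparison are a description.

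The RNA came from the liver of 10 mice, with 1 mouse on each Affymetrix array. In 5 mice, labelled dn-cJun and numbered 16 to 20, an adenovirus carried a dominant negative form of cJun, one of the proteins that form the transcription factor AP-1. In the 5 control mice, numbered 11 to 15, the adenovirus carried GFP, a fluorescent protein. All 10 mice are described as ApoE-/-, so both groups share the loss of Apoe in their labels. The labels do not give the allele, the strain, the sex, the age, the dose of virus or the time after infection. An adenovirus given to a mouse reaches mainly the liver, but the cells infected here are not stated. Values below are log2(intensity + 16) after quantile normalization, and a difference of 1 on this scale is a doubling.

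Apolipoprotein E sits on very low density lipoproteins, chylomicron remnants and some high density lipoproteins and is the ligand through which the liver takes up remnants, by receptors of the low density lipoprotein receptor family and by heparan sulfate proteoglycans. Hepatocytes make most of the circulating protein, and macrophages make it as well. Mice without it accumulate remnants in plasma and develop atherosclerosis, which is why ApoE-/- mice are widely used. The C apolipoproteins beside it act on the same particles. Their genes form a compact cluster with Apoe that is expressed in liver, while Tomm40, Nectin2 and Clasrp in the same stretch of chromosome encode proteins of other functions.

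The median deposited intensity of an array was between 85.12 and 127.1, and pairs of arrays had correlations of 0.944 to 0.965. Defining hepatocyte transcripts were bright on every array, where the dimmest of 8 tested markers, among them Alb and Ttr, had a deposited intensity of 8180 or more. Control mice 14 and 15 stood apart in Xist, an RNA that marks female cells, and in Sult2a2. The sex of the mice is not in the labels and was not tested. Xist, the RNA that coats the inactive X chromosome, had log2 values of 4.10 to 4.90 in the arrays labelled dn-cJun and of 12.66 and 12.80 in controls 14 and 15, against 4.41, 4.32 and 5.89 in controls 11, 12 and 13. Sult2a2, a sulfotransferase, had 4.24 to 6.46 in the arrays labelled dn-cJun, against 13.99 and 14.15 in controls 14 and 15 and 5.84 to 6.59 in the other 3 controls. Among probe sets with 1 gene symbol, these were the largest differences in size after that of Apoe. They were -3.67 for Xist and -3.62 for Sult2a2, and neither passed the threshold (limma adjusted p = 0.309 and 0.317). Without controls 14 and 15 these differences were -0.53 and -0.49. The differences without these 2 controls are therefore also given for the members, and for other named genes and lists where they moved by over 1.5 times or changed sign.

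Apoe was near the top of the intensity range on every array labelled dn-cJun and far lower on every control array. Its deposited intensities were 40525, 54903, 56053, 63502 and 61738 in dn-cJun mice 16 to 20. In control mice 11 to 15 they were 1225, 688, 1204, 1926 and 1808. The lowest array labelled dn-cJun was thus 21-fold above the highest control. On the normalized log2 scale, dn-cJun mice 16 to 20 had 15.31, 15.63, 15.72, 15.81 and 15.82, against 9.98, 9.42, 10.25, 10.94 and 10.63 in control mice 11 to 15. The group means were 15.66 ± 0.21 in dn-cJun mice and 10.25 ± 0.59 in control mice (SD, n = 5 each). The difference was 5.41 (SE 0.22), or 42.6-fold, with a ratio of 40.4 between the mean deposited intensities, and no other probe set tested differed by as much. The groups did not overlap. On the log2 scale the spread was wider in the controls, while the SD of the deposited intensities was 9052 in dn-cJun mice and 503.7 in control mice.

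Both groups carry the label ApoE-/-, yet the Apoe signal was 42.6-fold higher on the arrays labelled dn-cJun. The control arrays were not without signal either, at deposited intensities of 688 to 1926, where array medians were 85.12 to 127.1. Whether the label holds for the mice labelled dn-cJun was not tested. Nor was it tested whether the probes match RNA that an altered Apoe gene still makes. The part of the gene that the probe set covers, and the part that the allele removes, are not given in the sources used here. For that reason the mice are called "labelled dn-cJun", and each difference below is between groups that also differ in Apoe signal. Whether a difference goes with the virus or with the state of the Apoe gene cannot be told apart in this design. The groups also differ in Xist, which was high in controls 14 and 15 and in no array labelled dn-cJun.

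The 5 control mice differed among themselves in Apoe, and this order was noted after the values were seen. Apoe was lowest in control 12 and highest in controls 14 and 15, the arrays with high Xist. The order used below is that of the normalized values. In the deposited intensities control 11, at 1225, was just above control 13, at 1204. The mean centred level of 11 tested macrophage and Kupffer cell markers was -0.21 in control 12, -0.12 in control 11, 0.13 in control 13, 0.29 in control 15 and 0.36 in control 14, which is the same order as that of Apoe. The level of 7 stellate cell markers had this order too, at -0.27 in control 12, 0.03 in control 11, 0.07 in control 13, 0.26 in control 15 and 0.36 in control 14, so the order was not particular to macrophage markers. In the arrays labelled dn-cJun the macrophage marker level was -0.18 to 0.04 and its order was not that of Apoe. In bulk tissue, fewer cells of a type and less RNA per cell cannot be told apart, and the part of either cell type in the Apoe signal was not tested. Without controls 14 and 15, in a fit normalized anew, the difference in Apoe was 5.81 (SE 0.16).

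**Figure D1:**
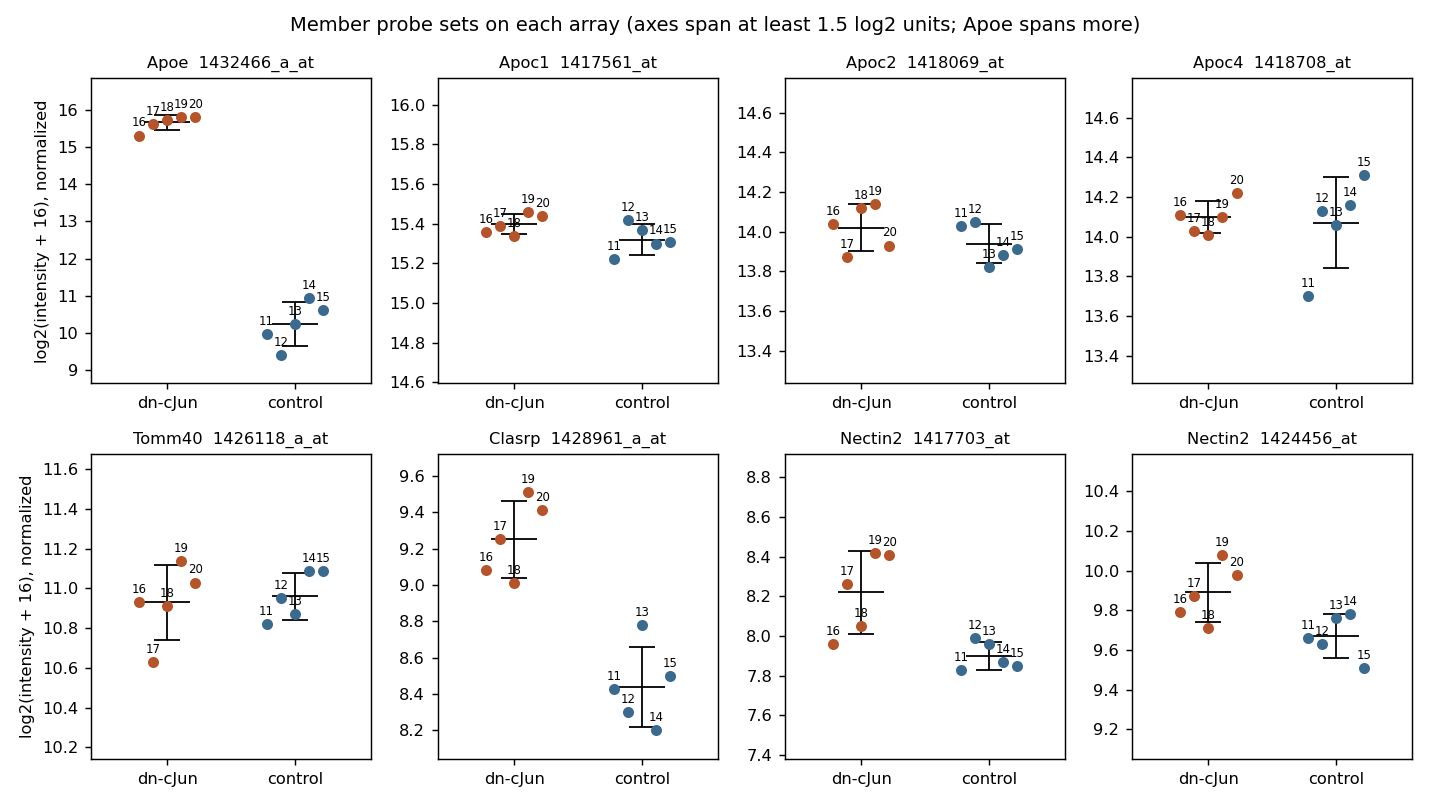
Log2(intensity + 16) after quantile normalization for the 8 probe sets, 1 panel each, with a point for each mouse (its number above it), dn-cJun mice on the left and control mice on the right, and horizontal bars for the mean and SD of 5. Apoe and Clasrp are the panels in which the groups do not overlap. The Apoe axis covers the most log2 units and the Clasrp axis slightly more than the rest, which share a common span.

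To show the DNA in front of the genes that the comparison turns on, the 250 bases before the outermost annotated start are printed for Apoe, for Tomm40, which is the next gene on one side, and for Clasrp. RefSeq promoter windows of build GRCm38.p6 were matched for 6 of the 7 genes, all but Apoc1. There were 9 windows in all, and some windows of the same gene overlap. The windows printed are chr7:19699189-19699438 for Apoe, chr7:19715430-19715679 for Tomm40 and chr7:19604487-19604736 for Clasrp, each on the minus strand and each written 5′ to 3′. Capitals mark a GC box (GGGCGG) or a CCAAT box (CCAAT) on either strand.
Apoe: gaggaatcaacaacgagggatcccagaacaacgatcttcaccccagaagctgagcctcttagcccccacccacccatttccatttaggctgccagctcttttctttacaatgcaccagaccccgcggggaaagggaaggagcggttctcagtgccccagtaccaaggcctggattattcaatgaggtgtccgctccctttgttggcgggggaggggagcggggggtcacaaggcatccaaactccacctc
Tomm40: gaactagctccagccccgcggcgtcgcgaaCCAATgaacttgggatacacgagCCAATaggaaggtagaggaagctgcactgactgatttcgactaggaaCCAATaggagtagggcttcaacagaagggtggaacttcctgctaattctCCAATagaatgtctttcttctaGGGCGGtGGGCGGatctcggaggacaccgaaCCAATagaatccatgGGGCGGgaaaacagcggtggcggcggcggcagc
Clasrp: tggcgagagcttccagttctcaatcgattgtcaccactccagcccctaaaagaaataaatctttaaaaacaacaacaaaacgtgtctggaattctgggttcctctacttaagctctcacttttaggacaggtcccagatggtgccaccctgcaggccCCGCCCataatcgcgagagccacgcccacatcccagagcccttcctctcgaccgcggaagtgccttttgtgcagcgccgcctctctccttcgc
The Tomm40 window held 5 CCAAT boxes and 3 GC boxes, the Clasrp window held 1 GC box, and the Apoe window held neither. AP-1, the factor that the dominant negative form is made to block, binds the site TGANTCA, and its relatives bind the cyclic AMP response element TGACGTCA. Neither was found on either strand in the 250 bases before any of the 9 annotated starts of the 6 genes with a window, which leaves out Apoc1. Among all 32851 windows of the same length, 6.75% held TGANTCA and 1.55% held TGACGTCA, while 32.7% held a GC box and 33.8% a CCAAT box. The absence of a match says only that these letters are not in these windows.

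The 3 C apolipoproteins next to Apoe had close values in both groups. Apoc1 slows the uptake of remnants by interfering with the binding of apolipoprotein E. It had log2 values of 15.36, 15.39, 15.34, 15.46 and 15.44 in dn-cJun mice 16 to 20, against 15.22, 15.42, 15.37, 15.30 and 15.31 in control mice 11 to 15. The ranges overlapped, and the difference was 0.08 (SE 0.05, 95% interval -0.04 to 0.19). The Apoc1 difference moved with the scaling. It was 0.32 with equal array medians, where the groups did not overlap, and 0.35 with the factor per array undone.

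Apoc2, the cofactor that activates lipoprotein lipase, had 14.04, 13.87, 14.12, 14.14 and 13.93 in dn-cJun mice 16 to 20, against 14.03, 14.05, 13.82, 13.88 and 13.91 in control mice 11 to 15. The difference was 0.08 (SE 0.07, 95% interval -0.07 to 0.23). Apoc4, a minor apolipoprotein of very low density lipoproteins, had 14.11, 14.03, 14.01, 14.10 and 14.22 in dn-cJun mice 16 to 20, against 13.70, 14.13, 14.06, 14.16 and 14.31 in control mice 11 to 15. Its ranges overlapped too, with the lowest and the highest values both among the controls, and the difference was 0.02 (SE 0.09, 95% interval -0.18 to 0.22). These intervals leave room for differences of at most 0.23 on the log2 scale under this normalization, in genes that lie within a few places of one that differed by 5.41.

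Tomm40, the channel of the outer mitochondrial membrane translocase, neighbours Apoe on the other side. It had 10.93, 10.63, 10.91, 11.14 and 11.03 in dn-cJun mice 16 to 20, against 10.82, 10.95, 10.87, 11.09 and 11.09 in control mice 11 to 15. Both the lowest and the highest value were in the dn-cJun group, and the difference was -0.04 (SE 0.10, 95% interval -0.25 to 0.18). With the values as deposited it was -0.24.

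Clasrp, a serine and arginine rich protein that binds the splicing kinase CLK4, was the only member beside Apoe whose groups did not overlap. Its log2 values were 9.08, 9.25, 9.01, 9.51 and 9.41 in dn-cJun mice 16 to 20, against 8.43, 8.30, 8.78, 8.20 and 8.50 in control mice 11 to 15. The means were 9.25 ± 0.21 in dn-cJun mice and 8.44 ± 0.22 in control mice (SD, n = 5 each), a difference of 0.81 (SE 0.14) or 1.75-fold. The deposited intensities were also apart, at 455 to 644 in dn-cJun mice and 277 to 425 in control mice. Clasrp is the 6th gene from Apoe in the gene order, beyond Relb and Clptm1. It rests on 1 probe set, which passed the threshold in 13 of 20 alternative settings. Its ranges stayed apart in all 20. Many of these settings change only the filter or the fit, or leave arrays out, and could hardly make separate ranges overlap. No support is therefore read from the ranges staying apart.

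Nectin2, an adhesion molecule of epithelial cells and a ligand of lymphocyte receptors, was measured by both of its probe sets. Probe set 1417703_at had 7.96, 8.26, 8.05, 8.42 and 8.41 in dn-cJun mice 16 to 20, against 7.83, 7.99, 7.96, 7.87 and 7.85 in control mice 11 to 15. Probe set 1424456_at had 9.79, 9.87, 9.71, 10.08 and 9.98 in dn-cJun mice 16 to 20, against 9.66, 9.63, 9.76, 9.78 and 9.51 in control mice 11 to 15. In each of them 4 of 5 dn-cJun mice were above the highest control, so the groups overlapped by 1 array. The differences were 0.32 (SE 0.13) and 0.22 (SE 0.10). Without controls 14 and 15 they were 0.29 and 0.21, against 0.06 for Apoc1, 0.05 for Apoc2, 0.13 for Apoc4, 0.05 for Tomm40 and 0.75 for Clasrp. With the values as deposited the Nectin2 differences were 0.09 and 0.01, where the median of all probe sets tested was at -0.20.

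All 8 probe sets passed the filter on low values, and the mean of each group lay above its level in all 8. In the fit over all 27000 probe sets tested, 2 of the 8 passed an adjusted p of 0.05, both as higher, and the same 2 had groups that did not overlap. Over all probe sets 0.693% passed in either direction, 0.278% as higher, and 3.63% had groups that did not overlap, 1.74% as higher. Because the members were chosen with this comparison known, nothing is read from these counts. The median size of the difference, without its sign, was 0.15 over the 8 and 0.15 over all probe sets tested.

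**Figure D2:**
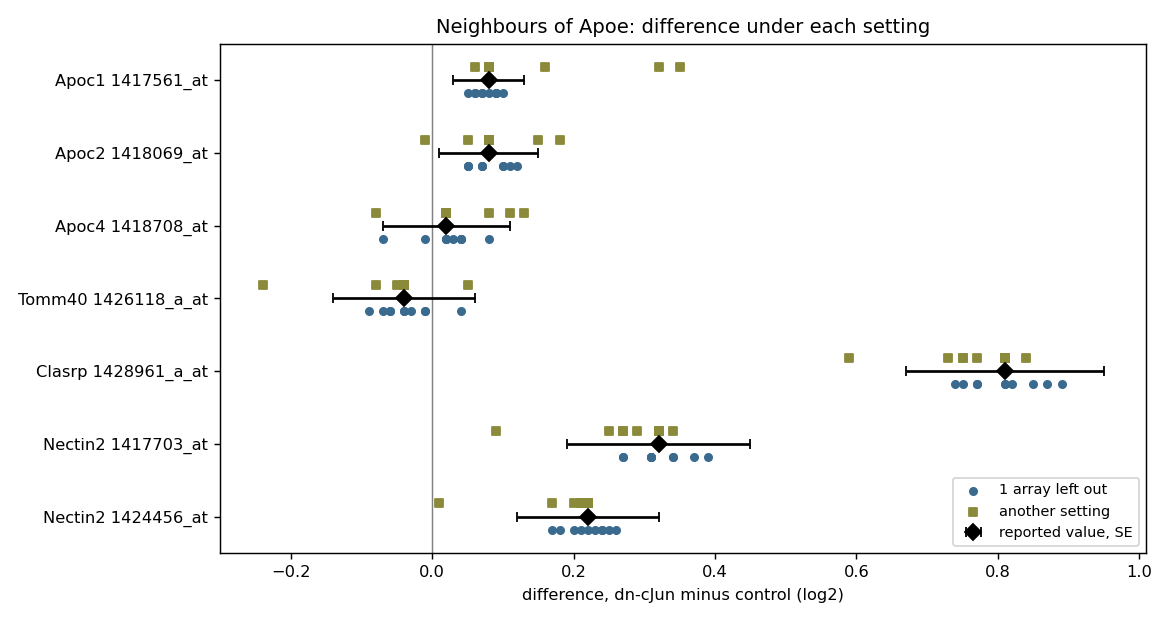
Difference between dn-cJun and control mice (log2) for the 7 probe sets beside that of Apoe, with the reported value and its SE as a diamond, each fit with 1 array left out as a circle and each other setting as a square. Clasrp stays between 0.59 and 0.89, while Apoc2, Apoc4 and Tomm40 have values on both sides of 0.

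The members were also compared array by array after the group means were subtracted, over 28 pairs of probe sets and 10 arrays. The arrays share their scaling, so these correlations are a description. The highest were those of Apoc1 with Nectin2 1417703_at (Pearson r = 0.73, Spearman rho = 0.88) and of the 2 Nectin2 probe sets with each other (r = 0.73, rho = 0.68), which became 0.86 and 0.64 without the 2 arrays farthest from the median. For Clasrp with Nectin2 1417703_at, r was 0.67 and rho was 0.67, and r was 0.61 without the 2 farthest arrays. Among the dn-cJun mice, 19 and 20 were the highest and 16 and 18 the lowest in Clasrp, in Apoc1 and in both Nectin2 probe sets. For Apoe, r was -0.20 with Apoc1 and -0.42 with Apoc2, and it was 0.52 and -0.16 without the 2 farthest arrays, so the value with Apoc1 rested on those arrays. The genes most like Apoe in this measure were Nkiras2, an inhibitor of NF-kB signalling, at r = 0.96, Ankfy1 at 0.95 and Sema6d at 0.94, with rho of 0.90, 0.93 and 0.94. Without the 2 farthest arrays r was 0.90, 0.91 and 0.93 for these 3 genes. Over the 12728 genes compared, the middle 95% of r lay between -0.74 and 0.77, so single correlations over 10 arrays spread widely.

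The stretch of chromosome around Apoe was then followed outward. Of the nearest 25 genes with a probe set on each side, members left out, 28 of 50 had a probe set above the filter. None of these 28 passed the threshold in limma, where 0.693% of all probe sets did. Clasrp, which lies in this stretch, was left out as a member chosen by its difference. The counts here thus describe only the remaining genes, and the absence of calls was partly set by that choice. An unadjusted p under 0.05 was found for 5 of the 28, or 17.9%, near the 13.3% of all probe sets tested. Their differences ran from -0.79 to 0.79 with a median of -0.02 (0.06 with no filter and -0.08 without controls 14 and 15), and 14 were higher and 14 lower. No flanking gene had groups that did not overlap. The median size without sign was 0.19, against 0.15 over all probe sets tested.

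On the side of the C apolipoproteins, Clptm1, a membrane protein, was at -0.07 (SE 0.09), and at -0.13 without controls 14 and 15. Relb, a subunit of NF-kB, was at -0.67 (SE 0.30), with 5.73 to 7.61 in dn-cJun mice and 6.91 to 7.63 in control mice (limma adjusted p = 0.365). Zfp296 was at -0.79 (SE 0.48), with 4.35 to 7.31 in dn-cJun mice and 6.54 to 7.04 in control mice. Its dn-cJun mean of 6.07 was close to the filter level of 6.06, so this value is a dim one. Gemin7, a part of the complex that assembles spliceosomal particles, was at 0.08 (SE 0.09) and Ppp1r37 at -0.15 (SE 0.12). Clasrp thus lay between Relb and Zfp296, both with differences below 0 that missed the threshold.

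On the side of Tomm40, Bcam, a laminin receptor, was at 0.46 (SE 0.26), Cblc, a ubiquitin ligase, at 0.00 (SE 0.13; -0.15 without controls 14 and 15), Bcl3, a partner of NF-kB, at -0.27 (SE 0.16) and Pvr, a relative of Nectin2, at -0.06 (SE 0.14). Gm19345 between the last pair was below the filter. Further out, 2 genes were singled out after their values were seen. Igsf23, on the same side, had the smallest p of the flanks, at 0.38 (SE 0.15, limma adjusted p = 0.278), and was at 0.22 without controls 14 and 15. Ckm, the creatine kinase of muscle, lies on the side of the C apolipoproteins and was at 0.79 (SE 0.34, limma adjusted p = 0.34). Over the whole of chromosome 7, 13 of 1533 probe sets passed the threshold, or 0.848%, with Apoe and Clasrp among them.

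**Figure D3:**
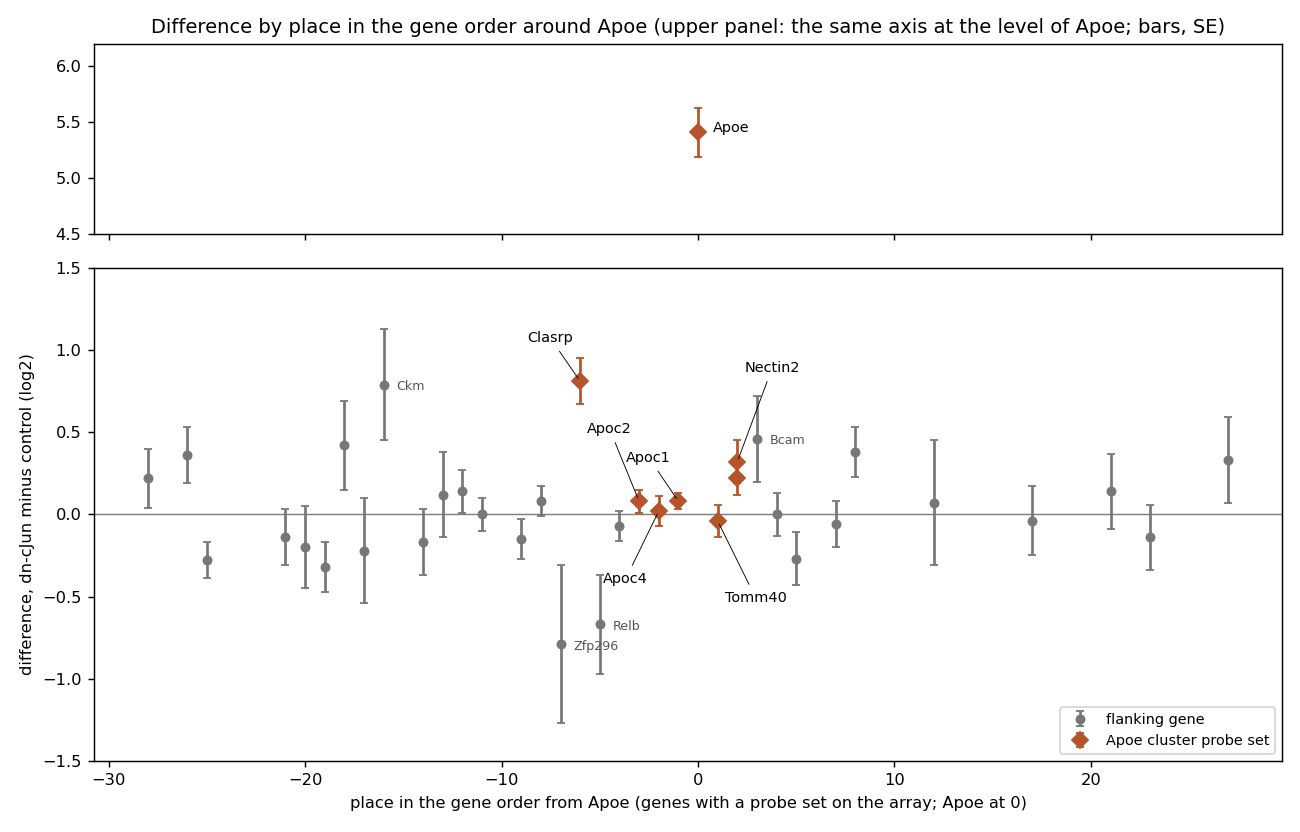
Difference between dn-cJun and control mice (log2, bars SE) by place in the gene order around Apoe, counting genes with a probe set on the array. The upper panel continues the axis of the lower one at the level of Apoe, at 5.41. The 28 flanking genes lie between -0.79 and 0.79, and Clasrp, a member chosen by its difference, lies at 0.81.

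The partners of apolipoprotein E elsewhere in the genome did not show a difference of comparable size. Of the 13 genes of lipoprotein particles other than the members, 12 were tested, none passed the threshold (0.693% of all probe sets did) and 2, or 16.7%, had an unadjusted p under 0.05, as 13.3% of all probe sets had. Their median was 0.04, and 9 were higher and 3 lower. Apoa5, which promotes the hydrolysis of triglyceride in plasma, had the smallest p, with 14.64 ± 0.12 in dn-cJun mice and 14.32 ± 0.22 in control mice (SD, n = 5 each) and a difference of 0.32 (SE 0.10, limma adjusted p = 0.165). The median of this list was 0.22 with equal array medians, 0.25 with the factor per array undone and 0.06 without controls 14 and 15.

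Of the 18 genes of receptors and remnant uptake, 12 were tested and none passed, where 0.693% of all probe sets did, and the median was -0.05 (-0.09 without controls 14 and 15). An unadjusted p under 0.05 was found for 3 of the 12, or 25%, against 13.3% of all probe sets. Lpl, the lipase that Apoc2 activates, had the smallest p, with 12.04 ± 0.16 in dn-cJun mice and 12.57 ± 0.32 in control mice (SD, n = 5 each) and a difference of -0.52 (SE 0.13, limma adjusted p = 0.0987).

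The oxysterol receptor LXR induces Apoe in macrophages and fat. Of 12 genes of LXR and its targets, 11 were tested and 1, or 9.09%, passed as lower, where 0.415% of all probe sets did. This was Scd1, a fatty acid desaturase, which fell to 14.48 ± 0.32 in dn-cJun mice, against 15.41 ± 0.30 in control mice (SD, n = 5 each), with a difference of -0.93 (SE 0.16, limma adjusted p = 0.0196). Of the 11 tested, 3, or 27.3%, had an unadjusted p under 0.05, against 13.3% of all probe sets. The median of this list was -0.03, and 0.01 without controls 14 and 15. The call of Scd1 was lost with equal array medians, with the factor per array undone, without the intensity trend, without control 13 and without dn-cJun mouse 19, where none of the 3 lists had a gene past the threshold.

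Markers of the cells that make Apoe were compared alongside. Macrophage and Kupffer cell markers had a median of -0.15 over the 11 that were tested, 3 of them higher and 8 lower. Of these 2, or 18.2%, passed, both as lower, where 0.415% of all probe sets did. Unadjusted p-values under 0.05 were found for 3 of the 11, or 27.3%, against 13.3% of all probe sets. Lyz2, lysozyme, fell to 11.75 ± 0.11 in dn-cJun mice, against 12.45 ± 0.32 in control mice (SD, n = 5 each, difference -0.70, SE 0.13, limma adjusted p = 0.0296). Cd5l, a protein that macrophages secrete, fell to 12.86 ± 0.17 in dn-cJun mice, against 13.43 ± 0.22 in control mice (SD, n = 5 each, difference -0.57, SE 0.11, limma adjusted p = 0.0306). Without controls 14 and 15 the median of the list was 0.02 and 1 of the cell markers passed. None of the cell markers passed without the intensity trend, nor with 1 array left out where that array was control 11, 13 or 14 or dn-cJun mouse 17, 18, 19 or 20, so both calls were lost there. With equal array medians, without control 15 and without dn-cJun mouse 16, 1 passed. The list level overlapped between the groups, at -0.18 to 0.04 in dn-cJun mice and -0.21 to 0.36 in control mice.

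Hepatocyte markers had 7 of 8 tested members higher, none past the threshold and a median of 0.03. The median was 0.30 with the factor per array undone, 0.27 with equal array medians, 0.11 as deposited and 0.05 without controls 14 and 15. An unadjusted p under 0.05 was found for 1 of the 8, or 12.5%, against 13.3% of all probe sets. Hnf4a, a hepatocyte transcription factor, had the smallest p, at 0.21 (SE 0.08, limma adjusted p = 0.287). Of 7 stellate cell markers none passed, and 1, or 14.3%, had an unadjusted p under 0.05, against 13.3% of all probe sets. The median was -0.12 (-0.07 without controls 14 and 15). Pdgfrb, a growth factor receptor of stellate cells, had the smallest p, at -0.55 (SE 0.18, limma adjusted p = 0.212), and was at -0.32 without controls 14 and 15. RNA quality, read as the log2 difference between 3 prime and 5 prime control probe sets, was -0.44 ± 0.07 in dn-cJun mice and -0.48 ± 0.04 in control mice for Gapdh (SD, n = 5 each, exact permutation p = 0.429, two-sided, adjusted p = 0.429). For Actb it was 0.49 ± 0.07 in dn-cJun mice and 0.45 ± 0.05 in control mice (SD, n = 5 each, exact permutation p = 0.341, adjusted p = 0.429).

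**Figure D4:**
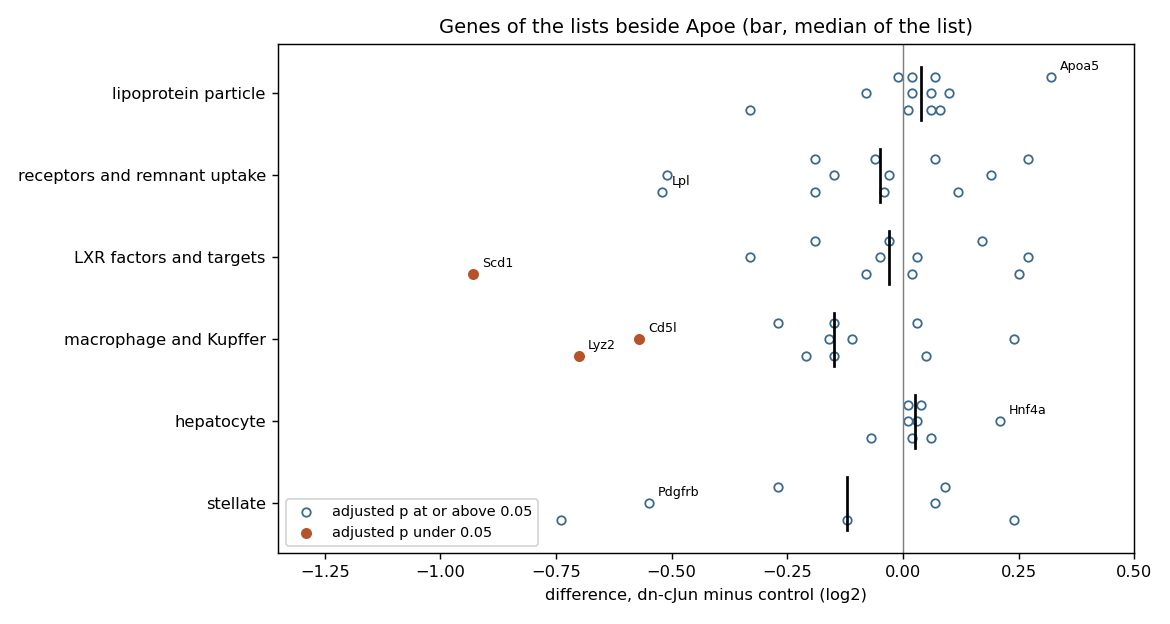
Difference between dn-cJun and control mice (log2) for each tested gene of the 6 lists, filled where the adjusted p was under 0.05, with a vertical bar at the median of each list. All values lie between -0.93 (Scd1) and 0.32 (Apoa5), and the medians between -0.15 and 0.04.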

How the data were processed

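RNA from 10 mouse livers was measured on 10 Affymetrix arrays, 5 per group, grouped by the sample titles. Per the deposited table each value is the intensity of a probe set, not on a log2 scale. The sources used here do not name its software. The members, lists and settings were chosen with earlier results of these data known. Intensities became log2(intensity + 16). Medians of arrays then spanned 0.50, above a limit of 0.1, so arrays were quantile normalized in R 4.3.3 with limma 3.58.1. Fold changes on this scale understate those of dim genes.

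Each of 45037 probe sets other than the 64 controls was one unit, since the members are probe sets. Those with a mean below the 40th percentile (a level of 6.06) were left out, which left 27000. In all, 34945 probe sets had 1 gene symbol, 932 had several and 9160 had none in the annotation used. Entrez identifiers of 99.4% of the single-gene entries matched the gene table of GRCm38.p6, which gave the gene order. The difference, dn-cJun minus control, was fitted by lmFit of limma and tested two-sided by eBayes, whose prior followed the mean intensity. P-values were Benjamini-Hochberg adjusted over the 27000, with a threshold of 0.05. A listed or flanking gene was its tested probe set with the highest mean. Named were all members, the 5 nearest non-member genes on each side and flanking genes past the threshold. Each list gave up to 4 passing genes, or the one with the smallest p. Among probe sets with 1 gene symbol, the 2 next largest differences after Apoe were also named. So were the 3 genes most correlated with Apoe within groups. The fit was tested on simulated data. Alternatives were other scalings, pseudocounts of 1 and 64, no filter or the 60th percentile, 1 probe set per gene, eBayes without trend, controls 14 and 15 left out, and each array left out in turn. RNA quality was tested by an exact permutation test over 252 splits. The labels say that each array holds 1 mouse. The number of arrays limits the precision, and detection calls were not used. Figures were drawn with matplotlib 3.10.9.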

Additional observations from a re-analysis of the deposited data

Results flagged for a closer look

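In 3 of 36 groups of 5 arrays looked at, 1 array stood far from the other 4, where chance gives about 1 in 20. Sult2a2 was at 4.24 in dn-cJun mouse 20, against 5.82 to 6.46 in the other dn-cJun mice. Xist was at 4.90 in dn-cJun mouse 16, against 4.10 to 4.27 in the other dn-cJun mice. These Xist values and the outlying Sult2a2 value were below the filter level of 6.06, so they are dim signals. The mean centred level of the hepatocyte markers was -0.10 in control mouse 11, while the remaining controls lay at -0.02 to 0.01. No probe set of Apoe or its neighbours was among these.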

How the results depend on the processing

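Of the 8 member probe sets, 2 passed as reported, and the call of Apoe held in all 20 alternative settings, with differences of 5.22 to 5.81. The number of members past the threshold was 1, Apoe alone, with the values as deposited (Clasrp 0.59, limma adjusted p = 0.0562), without the intensity trend (adjusted p = 0.0826) and with controls 14 and 15 both left out (Clasrp 0.75, adjusted p = 0.0712). With 1 array left out it was 1 to 2. Clasrp lost its call without control 14 and without dn-cJun 17, 19 or 20 (differences of 0.74 to 0.81, adjusted p = 0.053 to 0.0593). Over its alternatives the adjusted p of Clasrp was 0.0168 to 0.0826. Directions turned round where differences were small, for Apoc2 as deposited (-0.01), for Apoc4 as deposited (-0.08) and with 1 array left out (-0.07 to 0.08), and for Tomm40 without controls 14 and 15 (0.05) and with 1 array left out (-0.09 to 0.04). No flanking gene passed in any setting, with Clasrp left out as a member. The 3 lipid lists had 1 gene past the threshold as reported, 0 without the trend, 0 with the factor per array undone, 0 with equal array medians, 3 as deposited and 0 to 2 with 1 array left out. The cell markers had 2 as reported, 1 with equal array medians, 0 without the trend, 1 without controls 14 and 15, and 0 to 3 with 1 array left out. Over all probe sets, 187 passed as reported, 651 as deposited, 109 with equal array medians, 99 with 1 probe set per gene, 21 without the trend, 78 without controls 14 and 15, and 47 to 246 with 1 array left out. The causes of these changes were not tested. With 1 probe set per gene, Nectin2 1417703_at was not tested. No paired analysis was possible because the groups share no replicate number.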
